A study of Mus musculus with 10 samples.

Results

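The cytosolic heat shock chaperones were followed through the transcripts of 10 genes: the regulator Hsf1, the HSP70 genes Hspa1a, Hspa1b and Hspa8, the HSP110 genes Hspa4 and Hsph1, the HSP90 genes Hsp90aa1 and Hsp90ab1, and the J-domain cochaperones Dnaja1 and Dnajb1. Every probe set annotated to exactly 1 of these symbols was taken, which gave 24 probe sets of 45101 on the array and 8 of the 10 genes. No probe set was annotated to Hsf1 alone or to Hsp90ab1 alone, so neither is analysed here. Of the 24 probe sets, 22 lay at or above the 30th percentile of mean signal (4.04 log2 units), and 2 lay below it, Hspa1a 1452388_at and Hspa1b 1427126_at. The question was whether these transcripts, often read as a sign of handling or of proteotoxic stress, differed between tamoxifen and oil treatment.

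The arrays measured leukemic mouse cells from T-ALL, acute lymphoblastic leukemia of the T lineage, which had been started with ICN1, an active NOTCH1 fragment. All leukemias, in both groups, carried a ROSCreERT2 transgene, a Cre recombinase that is active only when tamoxifen is given, and 2 copies of CnB1 floxed alleles. CnB1, now named Ppp3r1, encodes the regulatory B subunit of the calcium-dependent phosphatase calcineurin. Secondary recipients that had become leukemic received either tamoxifen, which deletes CnB1 (TAM, 5 arrays), or the carrier corn oil, which leaves it in place (OIL, 5 arrays). Bones were collected on ice and crushed, marrow was flushed out, and leukemic cells, over 50% of the marrow, were flow-sorted by GFP or a similar marker. Each group held 1 array labelled 204, 1 labelled 206 and 1 each labelled F3.1, F3.2 and F3, and values are given in that order throughout. Nothing states that the arrays are from different mice, so p-values measure the spread between these arrays. Tamoxifen was given to the TAM leukemias only, with no group that received it without floxed alleles, so the drug and the deletion cannot be told apart. No label used here gives ages, doses or the time from treatment to collection.

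Cytosolic chaperones of the HSP70 family bind exposed hydrophobic stretches of other proteins in cycles of ATP hydrolysis. J-domain proteins such as DNAJA1 and DNAJB1 deliver clients to HSP70 and stimulate its ATPase, HSP110 proteins exchange the nucleotide, and HSP90 takes over late-folding clients such as kinases and steroid receptors. When misfolded proteins accumulate, the transcription factor HSF1 is released from chaperones, forms trimers and binds heat shock elements, which are arrays of alternating GAA and TTC units. HSPA1A, HSPA1B, HSPH1, HSP90AA1 and DNAJB1 are classical inducible products of this response, whereas HSPA8 and HSPA4 are abundant without stress. CreERT2 is itself held by HSP90 until tamoxifen binds it.

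The upstream sequences of the inducible pair Hspa1a and Hspa1b, of Hsph1 and of Dnaja1 are shown because these genes hold the extremes of the data below, the dimmest signals and, with Hspa8, the largest differences. They come from RefSeq promoter windows of assembly GRCm38.p6, each with 250 bases before and 50 after an annotated start. Windows were matched for 6 of the 10 genes: 1 each for Hspa1a, Hspa1b and Hspa4, 2 for Hsph1, 3 for Dnaja1 and 2 for Dnajb1. Hspa8, Hsp90aa1, Hsf1 and Hsp90ab1 are named only. The 150 bases before the start are printed 5′ to 3′, and capitals mark a 2-unit heat shock element, GAANNTTC or TTCNNGAA.
Hspa1a, chr17:34972157-34972306, minus strand: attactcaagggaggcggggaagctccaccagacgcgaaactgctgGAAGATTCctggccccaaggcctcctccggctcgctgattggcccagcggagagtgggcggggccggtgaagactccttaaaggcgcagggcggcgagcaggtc
Hspa1b, chr17:34959239-34959388, minus strand: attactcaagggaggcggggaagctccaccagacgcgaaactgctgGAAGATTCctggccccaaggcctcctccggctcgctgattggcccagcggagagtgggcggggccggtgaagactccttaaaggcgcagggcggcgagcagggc
Hsph1, chr5:149636337-149636486, minus strand: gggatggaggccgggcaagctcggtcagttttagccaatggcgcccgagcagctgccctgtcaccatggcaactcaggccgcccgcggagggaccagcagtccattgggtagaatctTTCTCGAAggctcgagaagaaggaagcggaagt
Dnaja1, chr4:40722318-40722467, plus strand: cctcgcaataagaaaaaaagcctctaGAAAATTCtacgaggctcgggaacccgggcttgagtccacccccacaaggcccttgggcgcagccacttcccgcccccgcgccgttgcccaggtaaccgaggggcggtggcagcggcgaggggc
The 2-unit motif was found on either strand in 4946 of 32851 windows, or 15.06% of all promoters of this length. It lay at bases -104 to -97 of both Hspa1a and Hspa1b, at -33 to -26 of Hsph1 and at -124 to -117 of Dnaja1, where 1 of its 3 windows held it. The Hspa1a and Hspa1b stretches differ at 1 of the 150 printed bases and at 3 of the 250 bases before the start. The 3-unit element, GAANNTTCNNGAA or TTCNNGAANNTTC, was in 198 windows, or 0.603% of all. Among these genes both Hsph1 windows held it, as TTCTGGAAAGTTC at bases 37 to 49 after the first start, where it overlaps 2-unit matches. The windows of Hspa4 and Dnajb1 held neither string. These matches describe letters in a window and are not evidence of binding.

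The labels were checked with Ppp3r1 itself, on the log2 expression scale. Probe set 1421786_at read 5.04, 4.49, 5.54, 5.51 and 6.04 in OIL and 3.18, 3.30, 3.02, 3.59 and 3.21 in TAM. Every TAM array lay below every OIL array, and Ppp3r1 fell by 2.06 log2 units (limma, adjusted p = 0.0161). A second probe set, 1433591_at, had a mean of 9.80 ± 0.09 over the OIL arrays and of 9.67 ± 0.04 over the TAM arrays (SD, n = 5) and differed by -0.12 (limma, adjusted p = 0.553). Whether either probe set lies within the deleted part was not determined. Array medians lay between 5.07 and 5.13. The most alike arrays were OIL F3.1 and OIL F3.2, with r = 0.997 across probe sets and an SD of their difference of 0.19 log2 units. The labelled cell type was checked by its markers: T lineage genes had mean levels of 10.80 to 11.40 in OIL and 10.84 to 11.22 in TAM over 9 measured genes. The mean over 10 myeloid markers was 5.02 to 6.51 in OIL and 5.47 to 6.999 in TAM, over 6 erythroid markers 4.71 to 4.93 and 4.68 to 4.90, over 7 B lineage markers 4.57 to 4.78 and 4.36 to 4.68, and over 8 stromal and endothelial markers 5.03 to 6.14 and 5.18 to 6.37.

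No probe set of the cytosolic chaperones passed the test between TAM and OIL. Across the array, limma called 33 of 45037 probe sets at an adjusted p under 0.05, or 0.0733%, 18 higher and 15 lower in TAM, and 0 of the 24 chaperone probe sets. With the label as a replicate block it called 584, or 1.3% of all, and again 0 of 24. At an unadjusted p under 0.05 limma had 4 of the 24 without the block, where 9.65% of all probe sets were that low, and 5 of 24 with it, where 17.1% were. The sign was more often positive: 17 of 24 were higher in TAM, or 70.8%, against 42.0% of all probe sets. The median difference was 0.11 log2 units for the 24 and -0.02 for all. Taking the brightest probe set of each gene, 6 of 8 were higher and the median was 0.08. Several probe sets report the same gene and are not independent of each other.

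**Figure D1:**
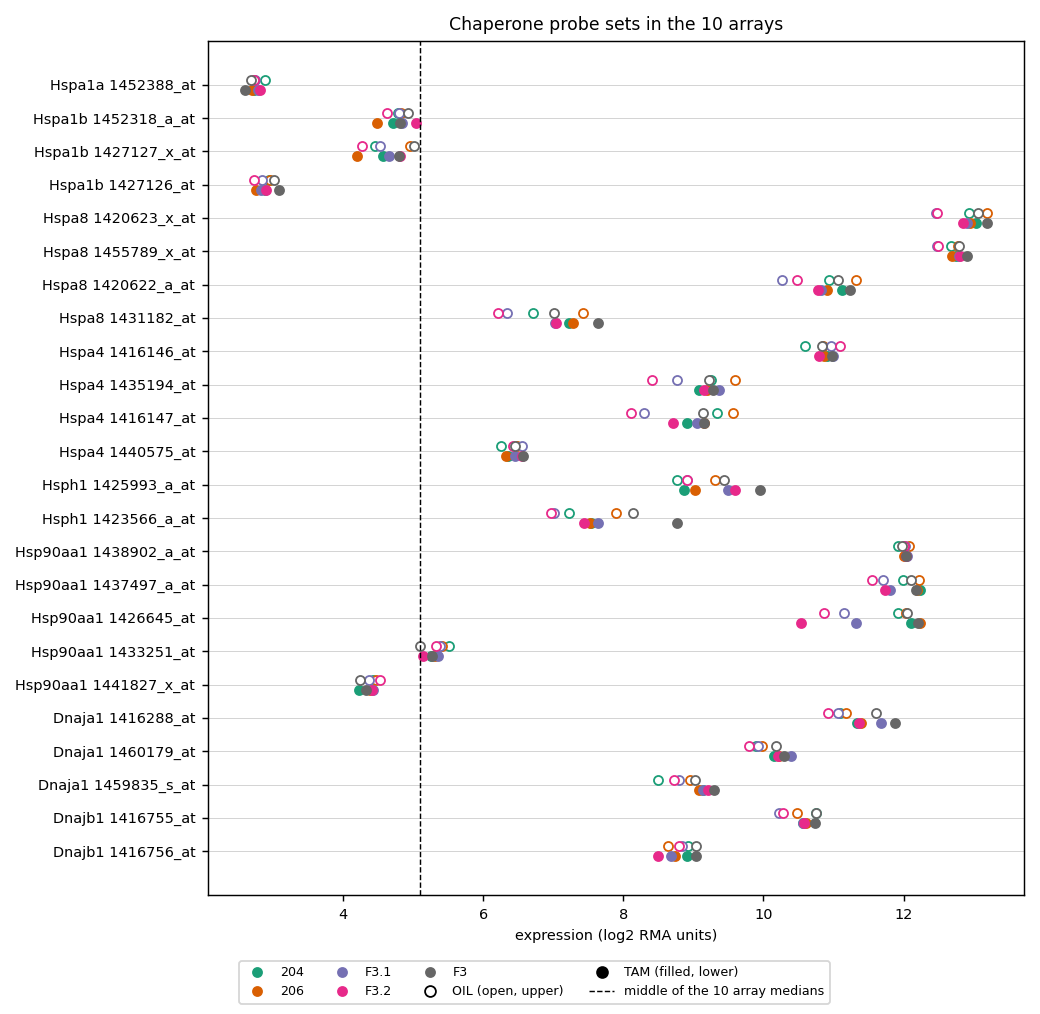
Log2 RMA expression of the 24 chaperone probe sets, one line each, with the 5 OIL arrays as open points above and the 5 TAM arrays as filled points below, coloured by label; the dashed line is the middle of the 10 array medians. Hspa1a, all 3 Hspa1b probe sets and Hsp90aa1 1441827_x_at lie left of the line in every array, and the groups are separate in 1 line, Dnaja1 1459835_s_at.

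The stress-inducible HSP70 genes gave dim signals in both groups. HSPA1A and HSPA1B are near-identical proteins that are scarce in most resting cells and accumulate strongly after heat or proteasome inhibition. Hspa1a 1452388_at read 2.89, 2.73, 2.74, 2.73 and 2.69 in OIL and 2.74, 2.70, 2.79, 2.81 and 2.60 in TAM. The arrays of both groups overlapped within a narrow range, and the mean of the probe set stood at percentile 7.60 of all. The difference was -0.03 (95% interval -0.17 to 0.11, limma, adjusted p = 0.923).

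Hspa1b was read by 3 probe sets, of which 1452318_a_at was the brightest. It read 4.79, 4.82, 4.79, 4.62 and 4.93 in OIL and 4.72, 4.49, 4.84, 5.05 and 4.82 in TAM. All 10 values lay under the lowest array median, and the TAM values held both the lowest and the highest. The means were 4.79 ± 0.11 and 4.78 ± 0.20 (SD, n = 5), a difference of -0.01 (95% interval -0.23 to 0.21, limma, adjusted p = 0.988). Probe set 1427127_x_at differed by -0.04 and 1427126_at by -0.01 (limma, adjusted p = 0.967 and 0.988). Within labels, 1427127_x_at differed by -0.75 between the 206 arrays and by 0.55 between the F3.2 arrays. Hspa1a and Hspa1b share most of their sequence, so the array may not tell their transcripts apart. A probe set's brightness also depends on its own sequence, so a dim signal is not a count of transcripts.

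The constitutive HSP70, Hspa8, was bright in every array. HSPA8 folds nascent proteins, uncoats clathrin vesicles and is present without stress. Its brightest probe set, 1420623_x_at, read 12.94, 13.19, 12.46, 12.48 and 13.06 in OIL and 13.03, 12.95, 12.91, 12.84 and 13.19 in TAM. The groups overlapped, with the OIL F3.1 and F3.2 arrays lowest. The difference was 0.16 (95% interval -0.17 to 0.49, limma, adjusted p = 0.786). Probe sets 1455789_x_at and 1420622_a_at gave 0.15 and 0.16 (limma, adjusted p = 0.601 and 0.828).

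The fourth Hspa8 probe set, 1431182_at, had the largest difference of all 24. It read 6.71, 7.43, 6.34, 6.22 and 7.01 in OIL and 7.22, 7.28, 7.03, 7.04 and 7.64 in TAM. TAM was higher in 4 of 5 labels and lower in 206, and the groups overlapped. The means of 6.74 ± 0.49 and 7.24 ± 0.25 (SD, n = 5) differed by 0.50 (95% interval 0.01 to 0.98), or 1.41-fold, which did not pass (limma, adjusted p = 0.506 and, with the replicate block, 0.122). Without both 206 arrays, an alternative chosen after seeing the data, the adjusted p with the block was 0.0327 (limma), and with each label left out in turn it ranged from 0.0327 to 0.297. The 4 Hspa8 probe sets moved together over the 10 arrays, with r between 0.83 and 0.98, so the larger difference in 1431182_at is one of size among related readings.

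The HSP110 genes encode nucleotide exchange factors for HSP70. Hspa4 was close between groups at its brightest probe set, 1416146_at, which read 10.59, 10.85, 10.96, 11.10 and 10.83 in OIL and 10.90, 10.87, 10.996, 10.79 and 10.97 in TAM. The TAM values lay inside the OIL range, and the difference was 0.04 (95% interval -0.16 to 0.24, limma, adjusted p = 0.923). Probe set 1440575_at differed by 0.02 (limma, adjusted p = 0.967).

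Other Hspa4 probe sets had a different pattern over the arrays. Probe set 1416147_at read 9.33, 9.57, 8.30, 8.12 and 9.13 in OIL and 8.91, 9.15, 9.05, 8.70 and 9.15 in TAM. Its lowest values were those of OIL F3.1 and OIL F3.2, which were among the 4 highest for 1416146_at, and the 2 probe sets correlated at r = -0.57 over the 10 arrays. It differed by 0.10 and 1435194_at by 0.17 between the groups (limma, adjusted p = 0.933 and 0.823). Probe sets of this 1 gene thus ordered the F3.1 and F3.2 leukemias differently.

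Hsph1, the heat-inducible HSP110, was higher in TAM in 4 of 5 labels but did not pass. Probe set 1425993_a_at read 8.77, 9.31, 8.91, 8.92 and 9.43 in OIL and 8.87, 9.02, 9.49, 9.60 and 9.95 in TAM. The TAM arrays of the F3 labels were the 3 highest, while TAM 204 and TAM 206 lay within the OIL range. The means were 9.07 ± 0.29 and 9.38 ± 0.44 (SD, n = 5), a difference of 0.32 (95% interval -0.14 to 0.78, limma, adjusted p = 0.671 and, with the replicate block, 0.302). Probe set 1423566_a_at gave 0.34 (95% interval -0.33 to 1.00, limma, adjusted p = 0.774), and 0.09 without the TAM F3 array (limma, adjusted p = 0.964). The 2 probe sets correlated at r = 0.80 over the arrays.

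HSP90AA1 is the inducible cytosolic HSP90, and its brightest probe set was the steadiest reading of the family. Hsp90aa1 1438902_a_at ranged from 11.91 to 12.08 in OIL and from 12.01 to 12.05 in TAM. The TAM range lay inside the OIL range, and the difference was 0.03 (95% interval -0.08 to 0.15, limma, adjusted p = 0.881). Probe sets 1433251_at and 1441827_x_at gave -0.08 and -0.05 (limma, adjusted p = 0.818 and 0.853).

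A further Hsp90aa1 probe set separated the labels rather than the treatments. Probe set 1426645_at read 11.92, 12.04, 11.15, 10.86 and 12.05 in OIL and 12.11, 12.23, 11.32, 10.54 and 12.20 in TAM. In both groups the F3.1 and F3.2 arrays were far below the others, and the treatments overlapped. TAM minus OIL was 0.08 (95% interval -0.72 to 0.87, limma, adjusted p = 0.968). With 1 array left out it ranged from -0.11 (without OIL F3.2) to 0.36 (without TAM F3.2). Probe set 1437497_a_at, which correlated with it at r = 0.93, gave 0.11 (limma, adjusted p = 0.859), whereas 1438902_a_at correlated with 1426645_at at r = -0.13.

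Dnaja1 had the most uniform difference of the 8 genes. DNAJA1 is a type I J-domain protein that delivers clients to HSP70. Its brightest probe set, 1416288_at, read 11.10, 11.18, 11.06, 10.93 and 11.60 in OIL and 11.33, 11.39, 11.68, 11.37 and 11.88 in TAM. OIL F3 reached into the TAM range, and within every label TAM was higher. The means of 11.17 ± 0.26 and 11.53 ± 0.24 (SD, n = 5) differed by 0.36 (95% interval 0.04 to 0.68), or 1.28-fold (limma, adjusted p = 0.464 and, with the replicate block, 0.0775).

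The other two Dnaja1 probe sets gave like values. Probe set 1459835_s_at read 8.49, 8.95, 8.79, 8.72 and 9.02 in OIL and 9.13, 9.09, 9.14, 9.20 and 9.29 in TAM. Every TAM array was above every OIL array, which held for 1 of the 24 chaperone probe sets and for 0.83% of all, and 0 of the 24 had every TAM array below, against 1.23% of all. The difference was 0.38 (95% interval 0.16 to 0.59), or 1.30-fold (limma, adjusted p = 0.237 and, with the replicate block, 0.0802).

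Probe set 1460179_at read 9.89, 9.98, 9.93, 9.80 and 10.18 in OIL and 10.14, 10.22, 10.40, 10.20 and 10.29 in TAM. Only OIL F3 overlapped the TAM range, above TAM 204. The difference was 0.29 (95% interval 0.11 to 0.47), or 1.23-fold (limma, adjusted p = 0.268 and, with the replicate block, 0.102). The 3 Dnaja1 probe sets were higher in TAM in 5 of 5 labels and were the 3 of the 24 that were, against 7.23% of all probe sets. They correlated at r between 0.79 and 0.91 over the arrays, so they are repeated readings of 1 transcript. None of them passed the adjusted threshold in either fit.

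DNAJB1 is the stress-inducible J-domain partner of HSP70 and feeds back on HSF1. Dnajb1 1416755_at read 10.74, 10.47, 10.23, 10.28 and 10.75 in OIL and 10.57, 10.61, 10.57, 10.57 and 10.74 in TAM. The TAM values lay inside the OIL range, and the difference was 0.12 (95% interval -0.13 to 0.36, limma, adjusted p = 0.786). Probe set 1416756_at gave -0.07 and was higher in TAM in 1 of 5 labels (limma, adjusted p = 0.873), so the 2 probe sets, which correlated at r = 0.37, differed in sign.

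**Figure D2:**
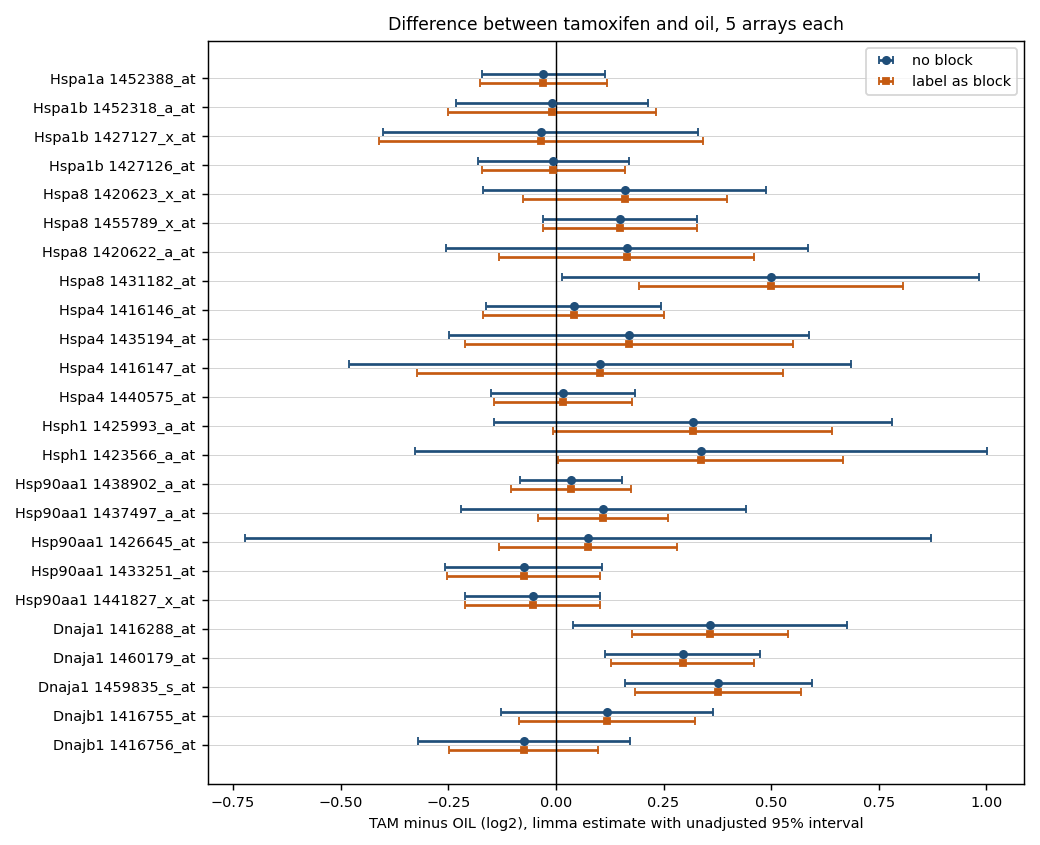
TAM minus OIL (log2) for each of the 24 chaperone probe sets as limma estimated it, with unadjusted 95% intervals, without a block (circles) and with the label as a block (squares). Intervals of the 3 Dnaja1 probe sets and of Hspa8 1431182_at stay above 0 in both fits, yet no probe set passed after adjustment over all 45037.

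Taken label by label, the chaperones were not alike. The median of the 24 within-label differences was 0.10 in 204, with 15 of 24 higher in TAM, and -0.09 in 206, with 7 of 24 higher. It was 0.24 in F3.1, with 20 higher, 0.31 in F3.2, with 19 higher, and 0.12 in F3, with 19 higher. Over all probe sets the share higher in TAM was 44.3%, 47.5%, 48.7%, 41.4% and 49.6% in the same order. The 206 leukemia was thus the one in which most chaperone probe sets were lower in TAM, among them all 4 of Hspa8 and both of Hsph1. The 7 that were higher in TAM in 206 were the 3 of Dnaja1 (0.21, 0.24 and 0.14), both of Dnajb1 (0.14 and 0.10), Hsp90aa1 1426645_at (0.19) and Hspa4 1416146_at (0.02).

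**Figure D3:**
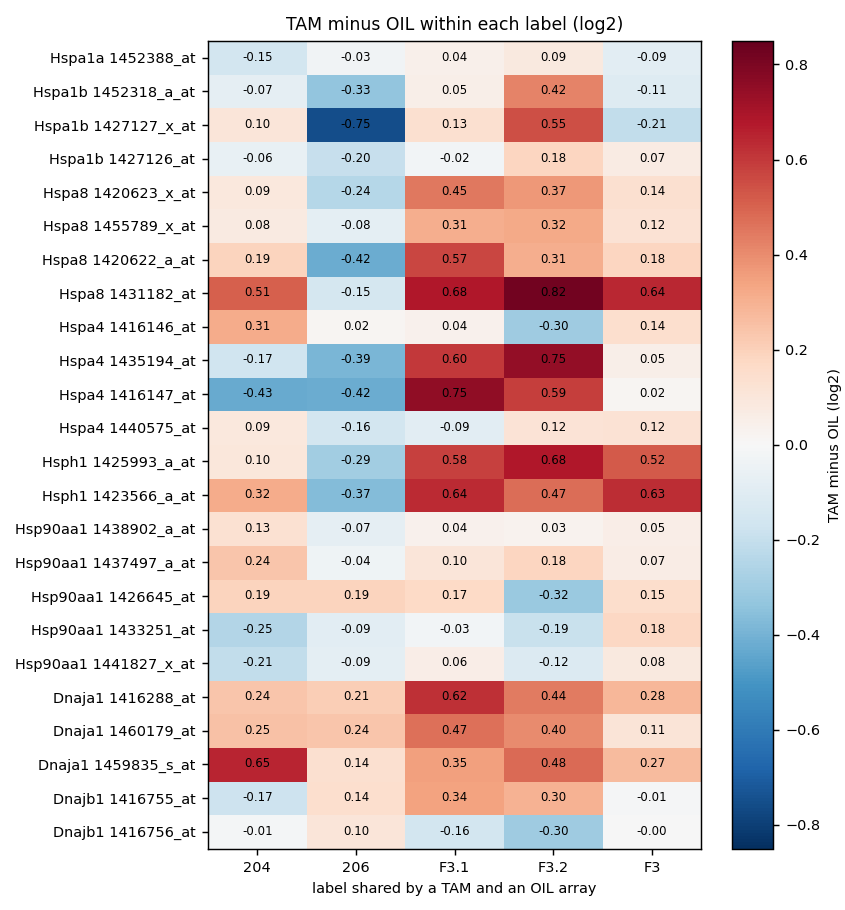
TAM minus OIL (log2) within each label for the 24 chaperone probe sets, with the value printed in each cell and red for higher in TAM. The 3 Dnaja1 lines are positive in all 5 columns, and the 206 column is mostly negative.

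Whether the treatment difference itself changed with the family of labels was tested between F3, F3.1 and F3.2 (6 arrays) and 204 and 206 (4 arrays), a division made from the label names. The interaction passed for 0 of 45037 probe sets, or 0.0%, at an adjusted p under 0.05 (limma), and 3 of the 24 chaperone probe sets had an unadjusted p under 0.05, against 4.88% of all. The 3 were Hspa4 1416147_at, with a difference of 0.88 between the families, Hspa4 1435194_at with 0.74 and Hsph1 1425993_a_at with 0.69 (limma, adjusted p = 0.978 for each). For Hsph1 the within-label differences were 0.10, -0.29, 0.58, 0.68 and 0.52.

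The families were also compared across treatments. Limma called 1066 probe sets between the F3 family and 204 with 206, or 2.37%, of which 456 were higher in the F3 family, and called 0 of the 24 chaperone probe sets. At an unadjusted p under 0.05 it had 2 of 24, where 14.1% of all probe sets were that low. The largest family difference was that of Hsp90aa1 1426645_at, -0.72 (limma, adjusted p = 0.321). That of 1437497_a_at was -0.31 (limma, adjusted p = 0.306).

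The low readings came from F3.1 and F3.2 and not from F3. In a comparison chosen after the values were seen, the 4 arrays of F3.1 and F3.2 lay below the other 6 without overlap for 4 of 24 chaperone probe sets, against 4.97% of all, and above them for 0, against 4.67% of all. The 4 were Hspa8 1420622_a_at and 1420623_x_at and Hsp90aa1 1426645_at and 1437497_a_at. For 1426645_at the 4 arrays averaged 10.97 ± 0.34 and the other 6 averaged 12.09 ± 0.11 (SD), a difference of -1.12, with no test because the arrays were chosen on it.

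The F3.1 and F3.2 arrays also stood apart in RNA quality. The beta-actin control, whose signal near the 3′ end minus that near the 5′ end grows as RNA shortens, was 0.41, 0.43, 0.56, 0.59 and 0.36 in OIL and 0.40, 0.40, 0.49, 0.70 and 0.34 in TAM. The F3.1 and F3.2 arrays held the 4 highest values in both controls. The group means were 0.47 ± 0.10 for OIL and 0.47 ± 0.14 for TAM, with SD over 5 arrays (exact two-sided permutation p = 0.960). For Gapdh they were 0.12 ± 0.13 and 0.10 ± 0.16 (exact two-sided permutation p = 0.746). The part of RNA length in the low Hsp90aa1, Hspa8 and Hspa4 readings was not tested. These readings were picked for being low in the F3.1 and F3.2 arrays, where label and RNA quality cannot be told apart.

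**Figure D4:**
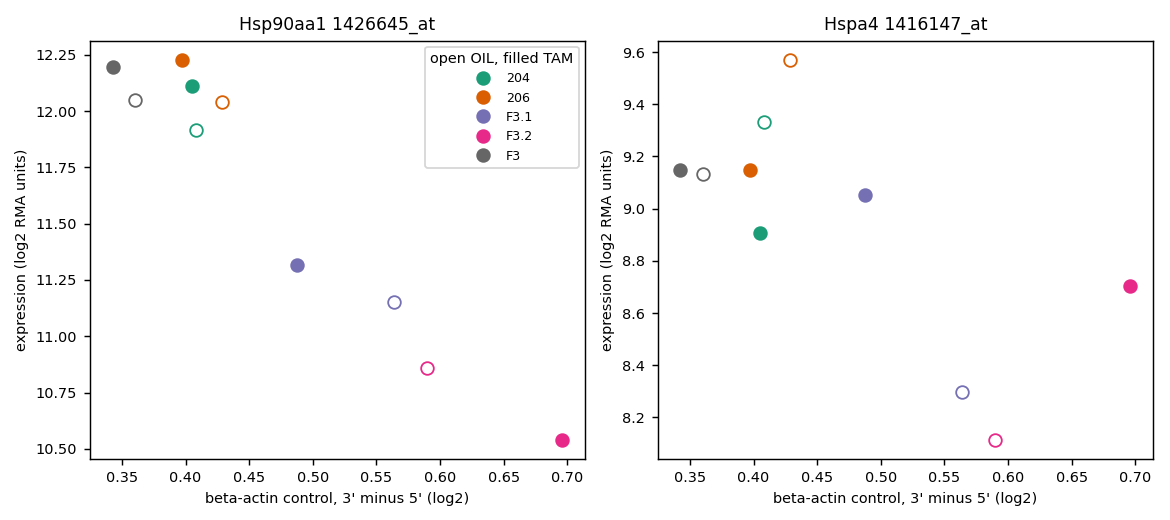
Log2 expression of Hsp90aa1 1426645_at (left) and Hspa4 1416147_at (right) against the beta-actin 3′ minus 5′ signal in the 10 arrays, coloured by label, open for OIL and filled for TAM; the vertical axes do not start at 0. The 4 arrays of F3.1 and F3.2 lie farthest right, from 0.49 to 0.70, and lowest on the left panel. The probe sets drawn were picked as those lowest in the F3.1 and F3.2 arrays relative to the other arrays.

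The chaperones did not follow one another closely as a family. At the brightest probe set of each gene, r over the 10 arrays, which share labels and treatment, was highest for Dnaja1 with Hsph1, 0.81, and for Hspa8 with Dnajb1, 0.79. It was lowest for Hspa4 with Hspa1a, -0.60. A mean profile was made from the classical inducible genes Hspa1a, Hspa1b, Hsph1, Hsp90aa1 and Dnajb1. Of 14391 other genes, those most like it over the 10 arrays were Cdc7 (r = 0.96), Zbtb11 (0.95), 0610030E20Rik (0.93), Ndel1 (0.93) and Map11 (0.93), a description with no test.

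Other genes of the chaperone network also showed few differences. Of 16 other HSF1-related chaperones and regulators, 6 were higher in TAM, and the median was -0.05. Without the block 0 were called, against 0.0733% of all probe sets, and 1 with it, against 1.3%. The 1 was Hspa4l, a further HSP110 gene, which read 7.01, 6.48, 7.07, 6.66 and 7.28 in OIL and 6.15, 5.99, 5.35, 6.01 and 6.51 in TAM. All but TAM F3, which overlapped OIL 206, lay below the OIL arrays, and Hspa4l was lower in all 5 labels. Its difference of -0.90 passed with the replicate block (limma, adjusted p = 0.0457) and not without it (0.182). Its 4 other probe sets ranged from -0.60 to -0.80, all lower in TAM in 5 of 5 labels. Bag3, an HSP70 cochaperone, was also lower in TAM in 5 of 5 labels, with a difference of -0.37. Bag3 did not pass (limma, adjusted p = 0.491 and, with the replicate block, 0.0726). The HSP70 gene Hspa2 was likewise lower in 5 of 5 labels, at -0.37, and did not pass (limma, adjusted p = 0.794 and, with the replicate block, 0.0927). Cryab, a small heat shock protein, went the other way by 1.10 and was higher in 4 of 5 labels. Within labels Cryab differed by 3.30, 1.42, 0.42, -0.05 and 0.42. It did not pass (limma, adjusted p = 0.781 and, with the replicate block, 0.248). Its other probe sets gave 0.57 and 0.01. Chordc1, named after its values were seen, was also higher in 4 of 5 labels. Its difference was 0.26 (limma, adjusted p = 0.541 and, with the replicate block, 0.268).

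Between the families, Cryab was lower in the F3 family, by a difference of -3.13 log2 units (limma, adjusted p = 0.0118). Its mean was 6.34 in 204 and 206 and 3.21 in the F3 family, the latter under the 30th percentile of mean signal (4.04). The HSP70 cochaperone Bag3 was also lower, at -0.44 (limma, adjusted p = 0.0480). Hspa2, a testis-rich HSP70, was higher by 1.04 (limma, adjusted p = 0.0193). Cryab, Bag3 and Hspa2 are the 3 of 16 HSF1-related genes called between families, against 2.37% of all probe sets. Other probe sets of Cryab gave family differences of -1.30 and 0.14 (limma, adjusted p = 0.0579 and 0.560), so the Cryab call rests on 1 of 3 probe sets.

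The HSP90 and HSP70 cochaperones had 17 of 20 listed genes measured, with 8 higher in TAM and a median of -0.01. The list counts Hspa13, itself an HSP70 gene, which was higher by 0.36 (limma, unadjusted p = 0.0368). Among the 17, 0 were called without the block and 1 with it, against 0.0733% and 1.3% of all probe sets. The 1 was Bag2, an inhibitor of the CHIP ubiquitin ligase. Bag2 differed by -0.44 and was lower in all 5 labels (limma, adjusted p = 0.416 and, with the replicate block, 0.0478). The cytosolic chaperonin TRiC with prefoldin had 0 of 14 called in either fit, 7 of 14 higher and a median of 0.00. Mitochondrial chaperones and proteases had 0 of 10 called in either fit, 4 higher and a median of -0.03. Limma without the block gave an unadjusted p under 0.05 for 2 of 16 HSF1-related genes, 3 of 17 cochaperones, 2 of 14 TRiC and prefoldin genes and 1 of 10 mitochondrial genes. Of all probe sets, 9.65% were that low.

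Chaperones of the endoplasmic reticulum answer to a separate stress pathway. All 14 measured genes had a higher mean in TAM, beside 42.0% of all probe sets. Their median difference was 0.22, against -0.02 for all, but limma called 0 in either fit. Without the block 3 of 14 had an unadjusted p under 0.05, against 9.65% of all probe sets. With it 6 of 14 had one, against 17.1% of all. Hsp90b1, the HSP90 of that compartment, had means of 10.67 ± 0.14 in the OIL arrays and 11.06 ± 0.14 in the TAM arrays (SD, n = 5), which differed by 0.39 and did not pass (limma, adjusted p = 0.180). It was named after its values were seen, as the gene of the list with the lowest adjusted p. Between the families 1 of 14 was called, against 2.37% of all probe sets. It was Dnajb9, at -0.98 (limma, adjusted p = 0.0282).

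Immediate early genes are switched on within minutes of dissociation or of receptor signalling. Of 17, 16 were higher in TAM, beside 42.0% of all probe sets. Their median was 0.40, against -0.02 for all. Limma called 1 of 17 without the block and 3 with it, against 0.0733% and 1.3% of all probe sets. In the fit without the block 8 had an unadjusted p under 0.05, against 9.65% of all. Nr4a1, an orphan nuclear receptor induced by antigen receptor signals, read 6.90, 6.90, 6.56, 5.72 and 7.56 in OIL and 9.23, 9.41, 9.15, 9.12 and 9.21 in TAM. It rose by 2.50 log2 units without overlap (limma, adjusted p = 0.00749). The AP-1 subunit Junb (0.53) and the MAP kinase phosphatase Dusp1 (0.74) passed with the replicate block (limma, adjusted p = 0.0168 and 0.0170) and not without it (0.0942 and 0.158). Whether collection and sorting differed between the groups was not tested.

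**Figure D5:**
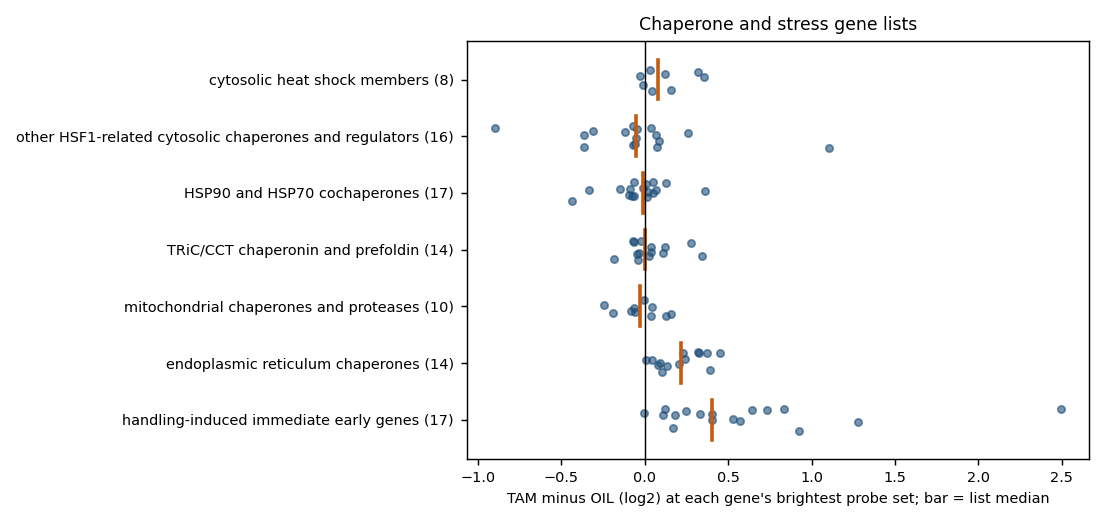
TAM minus OIL (log2) at the brightest probe set of each measured gene (points) in the 8 cytosolic chaperone genes and 6 other lists, with the number of genes in parentheses and the list median as a bar. Medians run from -0.05 for the other HSF1-related genes to 0.40 for the immediate early genes, with 0.08 for the 8 chaperone genes.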

How the data were processed

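RNA from 10 sorted leukemia samples was hybridised to oligonucleotide arrays. The authors deposited log2 expression values made with RMA, which corrects background, normalizes arrays by quantiles and so removes shifts common to all genes, per the submitters' processing notes. Arrays have no read depth, and their number limits the precision.

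Without 64 controls, 45037 probe sets remained, of which the platform annotation gave 34945 1 symbol, 932 several and 9160 none. Limma 3.58.1 (lmFit, eBayes) was fitted with R 4.3.3 (tables read by data.table, version 1.17.8) to all of them, with Benjamini-Hochberg adjustment and a call at an adjusted p under 0.05. TAM against OIL was fitted without a block (8 residual degrees of freedom) and, as an alternative, with the label as a replicate block (4). Family fits took the label as a random block. F3.1 and F3.2 were matched across groups by dropping a final number that differs. The deviations of the OIL and TAM arrays from their group means correlated within labels at 0.69, 0.69, 0.58, 0.26 and 0.75 (204, 206, F3.1, F3.2, F3), above the limit of 0.1 for pairing. OIL F3.2 correlated better with TAM F3.1.

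The members and lists were chosen with earlier results of these data known, and no list was tested. Named genes were all members, Ppp3r1, called list genes at their brightest probe set (up to 4 per direction and list) and the 5 genes most like the inducible profile. List genes not measured by a probe set with 1 symbol are not reported here. The fits were tested on simulated data. Alternatives were blocks, filters on dim probe sets, gene-level values, centring, a further quantile normalization, eBayes with trend and robust, array weights, averaging OIL F3.1 with OIL F3.2, and leaving out each array.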

Additional observations from a re-analysis of the deposited data

Results flagged for a closer look

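In 48 sets of 5 arrays (each of the 24 chaperone probe sets in each group), 3 had an array far from the other 4, by a rule that chance meets in about 5% of sets. Hsph1 1423566_a_at was 8.76 in TAM F3, against 7.44 to 7.64 in the other TAM arrays. Dnajb1 1416755_at was 10.74 in TAM F3, against 10.57 to 10.61 in the others. Hspa1a 1452388_at was 2.89 in OIL 204, against 2.69 to 2.74 in the others, a probe set in the dimmest 30% of the array.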

How the results depend on the processing

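Of the chaperone probe sets tested, 0 were called in each of 21 settings of TAM against OIL and in each of 15 of the family comparison. Most settings tested all 24, but leaving out the lowest 30% of probe sets kept 22 in either comparison. Leaving out the lowest 50% kept 19. With 1 value per gene, where dim genes were left out too, there were 7 (brightest probe set, without Hspa1a). The mean of all probe sets kept 6, without Hspa1a and Hspa1b. The median TAM minus OIL of those tested stayed between 0.03 and 0.18. The count over all 45037 probe sets was less steady. From 33 it went to 584 with the replicate block, 566 with a random block and 50 with array weights. It was 60 with the brightest probe set per gene (12735 genes, dim ones left out). With OIL F3.1 and OIL F3.2 averaged it was 13. Leaving out 1 array gave 13 to 44. It was 18 without OIL 204, 13 without OIL F3.1 or OIL F3.2, 14 without TAM 204 and 17 without TAM F3.1. The family count of 1066 became 2024 without a block and 296 with label means, and 485 (without OIL 204) to 1917 (without OIL F3) with 1 array left out, with 692, 563, 527, 543 and 625 without OIL 206, OIL F3.1, OIL F3.2, TAM 204 and TAM 206. The cause was not tested. With the replicate block and both arrays of a label left out, alternatives chosen after seeing the data, the count was 176 (204), 249 (206), 108 (F3.1), 760 (F3.2) and 187 (F3); among the chaperones, Hspa8 1431182_at alone was called, without 206. The interaction called 0 in both alternatives.

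At the brightest probe set, Dnaja1 stayed between 0.27 and 0.47 over 21 settings, with limma adjusted p from 0.0775 to 0.793 and no call, and Hsph1 between 0.18 and 0.45. The sign was kept in 21 of 21 settings for Hspa8, Hsph1, Hsp90aa1, Dnaja1 and Dnajb1, in 20 of 21 for Hspa4, in 15 of 19 for Hspa1b and in 15 of 17 for Hspa1a, whose differences were close to 0. With 5 arrays per group and pairing that rests on shortened labels, the calls that appear with the block alone (Hspa4l, Bag2, Junb, Dusp1 and Cd2) are less firm. Dim probe sets such as those of Hspa1a can hide a difference.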

Other observations

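Among the T lineage markers, 5 of 9 were higher in TAM, with a median of 0.07. Without the block 2 of 9 had an unadjusted p under 0.05 (limma), against 9.65% of all probe sets. After adjustment limma called 1 of 9, Cd2, with the replicate block and 0 without it, against 1.3% and 0.0733% of all. Cd2, an adhesion receptor of T cells, read 11.11, 10.33, 11.16, 10.76 and 11.36 in OIL and 9.76, 10.15, 9.80, 9.69 and 10.32 in TAM. Every TAM array lay below every OIL array, with a difference of -0.999 (limma, adjusted p = 0.0340 with the replicate block and 0.121 without). The CD3 chain genes of the antigen receptor complex, Cd3d and Cd3g, differed by -0.02 and 0.14 (limma, adjusted p = 0.967 and 0.705), and these 2 genes were named after their values were seen. None of the erythroid, myeloid, B lineage or stromal and endothelial markers was called by limma in either fit. Without the block, 0 of 6, 0 of 10, 3 of 7 and 0 of 8 had an unadjusted p under 0.05, against 9.65% of all probe sets. In the same order 2, 6, 0 and 6 genes were higher in TAM, beside 42.0% of all probe sets. The medians were -0.08, 0.28, -0.18 and 0.03. Of the 7 B lineage markers, 5 lay at or above the 30th percentile of mean signal.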
